A study of Mus musculus with 2 samples.

Results

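The subcortical maternal complex is an assembly of oocyte proteins that lies beneath the plasma membrane of the mouse egg and early embryo. The transcripts of 6 of its genes, Zbed3, Nlrp5, Ooep, Tle6, Khdc3 and Padi6, were examined in the second polar body (PB2) and its zygote. They were chosen by gene symbol as components of the complex, and all 6 were found among the 11262 genes of the table. PB2 and the remaining zygote of untreated C57BL/6 embryos (C57BL/6N in the study's methods) were separated at the late 1-cell stage, after the zona pellucida had been dissolved in acid Tyrode's solution, by pipetting in trypsin. Their polyadenylated mRNA was amplified as full-length cDNA, and 1 library of pooled PB2s and 1 library of zygotes were available. With 1 library on each side there is no replicate error and no test, and every difference below describes these libraries.

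Expression is given in TPM, a measure of transcript abundance that is scaled to a fixed library total and adjusted for gene length, so that levels of different genes within a library can be set side by side. TPM holds no record of the number of reads, so the depth behind each value is unknown. It is also a proportion, so more mRNA of a gene and less of the others cannot be told apart. The log2 ratio stands for log2((PB2 TPM + 1)/(zygote TPM + 1)), with positive values for higher levels in PB2. The 10645 genes with at least 1 TPM in either library were compared, and their median log2 ratio was 0.21, so a ratio near that value is that of a typical gene. Of 13 oocyte and egg marker symbols, 12 were in the table and all 12 were present in both libraries. Their summed level was 60118 TPM in PB2 against 65554 in the zygote, but single markers were not level. Past 2-fold were 4 towards PB2 (18.9% over all genes) and 1 towards the zygote (8.09% over all genes). Their log2 ratios ranged from -1.48 for Dppa3 to 2.68 for Zar1. Of 13 cumulus and granulosa cell markers, 5 were in the table, with sums of 84.8 TPM in PB2 against 81.7 in the zygote. Most of this was Cyp19a1, at 70.9 and 72.2 TPM, whereas Fshr had 3.30 and 2.2 TPM, and Cyp11a1 had 0.80 TPM in PB2 and was listed at 0 in the zygote. Foxl2, Amh and Inha were not analysed here. Of 8 sperm markers 2 were in the table, and their sums were 22.6 TPM in PB2 against 20.8 in the zygote.

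The complex is made by the growing oocyte from maternal genes, and female mice that lack a core component produce eggs that are fertilized but arrest in early cleavage. Nlrp5 (also called Mater), Ooep (Floped) and Tle6 form its core. Khdc3 (Filia) joins the core through Nlrp5, and Padi6 is needed for the cytoplasmic lattices, the fibrous structures of the egg in which proteins of the complex are also found. Zbed3, a protein with a BED-type zinc finger, is a component of the complex that is also known to bind Axin, a scaffold of the β-catenin destruction complex. Maternal mRNAs of this kind are stored in the oocyte, and their poly(A) tails are lengthened or shortened as the oocyte matures. The 3′ end of an mRNA guides this step through the polyadenylation hexamer (AATAAA or ATTAAA) and, in many stored mRNAs, the cytoplasmic polyadenylation element, a T-rich motif searched here as TTTTAT or TTTTAAT. Both motifs were searched on the transcript strand, and they can overlap each other.

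Because the libraries were made from polyadenylated RNA, the last 30 bases of each gene's longest protein-coding transcript are shown, 5′ to 3′, with the hexamer and the cytoplasmic polyadenylation element in capitals. They are transcript sequences of GENCODE M21 (GRCm38), at chr13:95337812-95337841 on the plus strand for Zbed3, chr7:23441893-23441922 (plus) for Nlrp5, chr9:78376109-78376138 (minus) for Ooep, chr10:81590905-81590934 (minus) for Tle6, chr9:73104409-73104438 (plus) for Khdc3 and chr4:140727355-140727384 (minus) for Padi6.
Zbed3: tttttTTTTAATAAAcTTTTATttatctgc
Nlrp5: gaatgaAATAAAcacagcatttagaaaagc
Ooep: aactcaggaccacaggctatgagtagcata
Tle6: agttgcgtgtAATAAAacaattgaaatggc
Khdc3: ttaaagtattctAATAAAaaaaaaattgca
Padi6: agagccAATAAAgcatggtattctgaatgt

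The 3′ end of Zbed3 differed from the other 5 in these letters. In Zbed3 the element TTTTAAT runs into the hexamer, a TTTTAT follows it, and 42 of the last 100 bases are T. The last 100 bases of the other 5 transcripts hold no such element and 22 to 31 T. The hexamer AATAAA starts 18 to 24 bases before the annotated end in Zbed3, Nlrp5, Tle6, Khdc3 and Padi6. The annotated Ooep transcript has no AATAAA, and its nearest ATTAAA lies 621 bases before the end. Over the 10606 compared genes with a transcript, 19.6% held TTTTAT or TTTTAAT in the last 100 bases and 81.2% held a hexamer, so neither is rare. The median log2 ratio was 0.24 for the 2084 genes with the element and 0.20 for the 8522 without it. Across all genes these medians lay within 0.1 of each other, and the share at least 2-fold higher in PB2 was 18.8% with the element and 18.9% without it. The share at least 2-fold higher in the zygote was 6.53% with the element and 8.43% without it. The median GC contents were 47.6% and 49.5%, and were not adjusted for. These motifs were searched only once the values were known.

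Zbed3 was the member with the highest level and the largest difference. Zbed3 (ENSMUSG00000041995) lies on the plus strand at chr13:95323612-95337841 (GRCm38). The longest annotated transcript spans 2 exons and 1945 nucleotides. It had 25991 TPM in PB2 against 5689 in the zygote, which is 2.60% of a full PB2 library and 0.569% of a zygote library. The PB2 level was 4.57 times the zygote level, with a log2 ratio of 2.19. Of all genes compared, 153 (1.44%) had a larger log2 ratio. The abundant genes, 155 that reached 1000 TPM in their higher library, included 18 (11.6%) past 2-fold towards PB2, and among them only Zar1 and Lars2, named after their values were seen, had a larger log2 ratio than Zbed3. Zar1, a maternal-effect gene whose product binds stored mRNAs, had 1019 TPM in PB2 against 157.9 in the zygote, while Lars2, a mitochondrial leucyl-tRNA synthetase, had 1352 and 174.9 TPM. Both lay more than 10-fold below Zbed3 in PB2. They reached 1000 TPM only in PB2, the library in which they were higher, whereas Zbed3 passed that level in both libraries.

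Of the 3 core genes, Ooep was near the median of all genes, Tle6 was higher in PB2 and Nlrp5 was higher in the zygote. Ooep (ENSMUSG00000032346, minus strand, chr9:78376109-78378725), a protein with an atypical KH domain, had 1400 TPM in PB2 against 1235 in the zygote. Its log2 ratio of 0.18 lay close to the median of 0.21, and 51.4% of the genes compared had a larger one. Among genes of its level it lay higher. Ooep is one of the 155 abundant genes, whose median was -0.35, and 41 of them (26.5%) had a larger log2 ratio. Tle6 (ENSMUSG00000034758, minus strand, chr10:81590904-81601073), a relative of the Groucho corepressors, had 200.2 TPM in PB2 against 94.2 in the zygote. That is 2.13 times, a log2 ratio of 1.08, just past 2-fold. Nlrp5 (ENSMUSG00000015721, plus strand, chr7:23385889-23441922), a NACHT and leucine-rich repeat protein, had 156.6 TPM in PB2 against 211.2 in the zygote. The zygote level was 1.35 times the PB2 level, with a log2 ratio of -0.43, and 77.0% of the genes compared had a larger one.

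The order of the core genes therefore was not the same in both libraries. Nlrp5 stood above Tle6 in the zygote, at 2.24 times its level, and below it in PB2, where Tle6 had 1.28 times the level of Nlrp5. Ooep was the most abundant core gene in both, at 5.85 times Nlrp5 in the zygote and 8.94 times in PB2. Against Tle6, in contrast, Ooep went from 13.1 times in the zygote to 6.99 times in PB2. These ratios within a library do not depend on how the libraries are scaled to each other. They are not free of the trend of the log2 ratio with the GC content of transcripts, which is described below. After removal of that trend the log2 ratio was 0.33 for Tle6 and -0.49 for Nlrp5, a smaller difference than that between 1.08 and -0.43. The change of order holds for the TPM values as given.

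Outside the core, Padi6 was higher in PB2 and Khdc3 was lower there. Padi6 (ENSMUSG00000040935, minus strand, chr4:140727355-140742643), a member of the peptidylarginine deiminase family, had 601.2 TPM in PB2 against 345.2 in the zygote. The PB2 level was 1.74 times the zygote level, with a log2 ratio of 0.80, short of 2-fold. Khdc3 (ENSMUSG00000092622, plus strand, chr9:73101836-73104438), a KH-domain protein, had 2.2 TPM in PB2 against 3.7 in the zygote. Its log2 ratio was -0.55, and rounding to 1 decimal allows a zygote level between 1.62 and 1.74 times that of PB2. Khdc3 was the lowest member by far, with Ooep at 333.9 times its level in the zygote and 636.5 times in PB2.

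The Khdc3 level has a limit that the other members do not share. In GENCODE M21 a longer gene on the same strand, Gm20509, shares 790 of the 1681 bases of the longest Khdc3 transcript (47.0%) and reaches into Rsl24d1. A read that lies in both genes cannot be assigned to a single gene in a count per gene. Gm20509 was not analysed here, and the part of the overlap in the low value of Khdc3 was not tested. No exonic base of the other 5 members is shared with another annotated gene. Matches to other transcripts did not reach 95% identity for these 5, and the longest match of Ooep, which matched 1707 other genes, covered 384 bases at 70.1% identity.

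**Figure D1:**
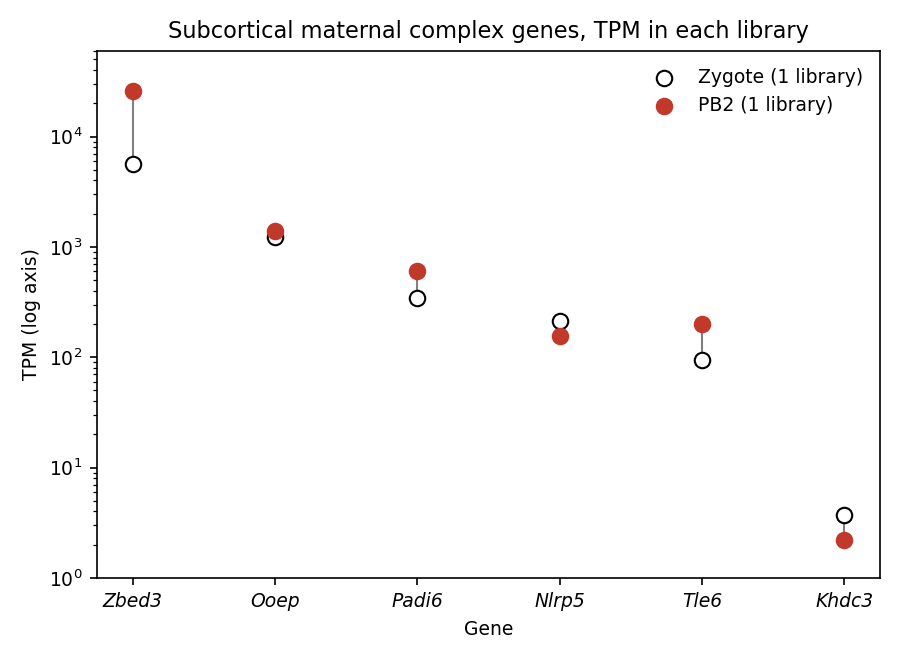
TPM of the 6 complex genes on a log axis, ordered by their level in the zygote, with an open circle for the zygote library and a red circle for the PB2 library and a grey line joining them. Zbed3 moved furthest, from 5689 to 25991 TPM, Ooep hardly moved, Tle6 passed Nlrp5, and Khdc3 stayed below 4 TPM in both.

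As a group, 2 of the 6 members, Zbed3 and Tle6, passed 2-fold towards PB2, as did 18.9% of all genes. None passed 2-fold towards the zygote, where the share over all genes was 8.09%. The median log2 ratio of the 6 was 0.49, against 0.21 for all genes, and the members ranged from -0.55 to 2.19. Divided by Actb, the internal control of the study's RT-qPCR, which had 134.8 TPM in PB2 against 120.0 in the zygote, Tle6 fell just short of 2-fold with a log2 ratio of 0.91, and Zbed3 alone remained past it. The gap between Zbed3 and the median of the other 5 was 2.01 on the log2 scale.

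**Figure D2:**
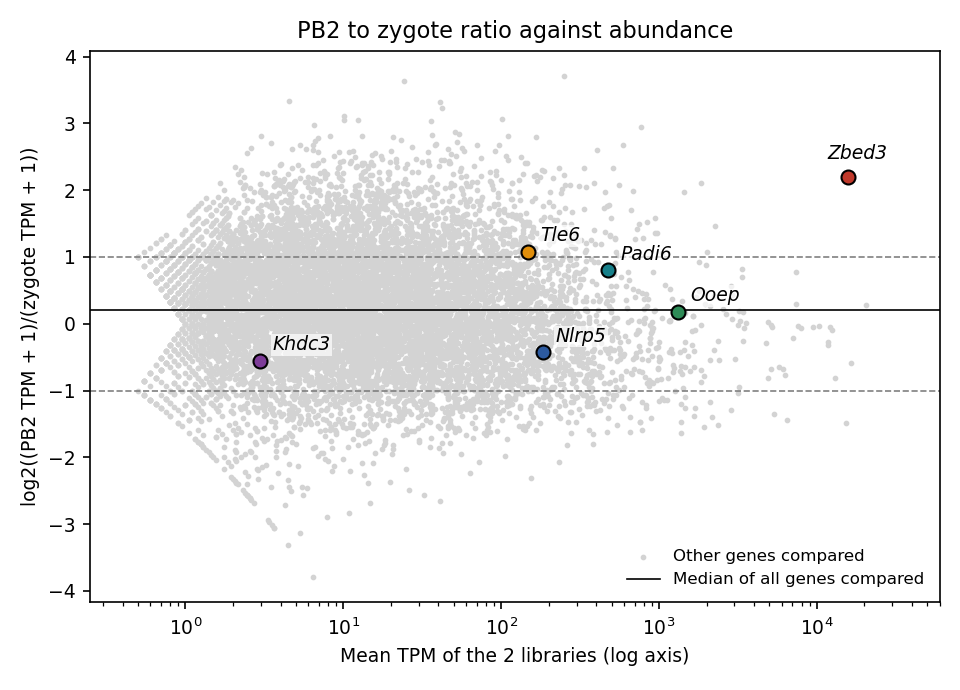
Log2 ratio of PB2 to zygote against the mean TPM of both libraries (log axis), with each compared gene as a grey point, the 6 members as coloured points, the 2-fold limits as dashed lines and the median of all genes as a solid line. Zbed3 stands at the upper right, away from the other genes of its abundance, Ooep lies on the median line, and Nlrp5 and Khdc3 lie below it.

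Added up, the 6 genes made 28351 TPM in PB2 against 7579 in the zygote, 3.74 times as much in PB2. Nearly all of that difference was Zbed3. Without it, the other 5 summed to 2360 TPM in PB2 against 1890 in the zygote, a ratio of 1.25. Zbed3 made up 91.7% of the summed TPM in PB2 and 75.1% in the zygote. Of what the other 5 genes held, Ooep went from 65.4% in the zygote to 59.3% in PB2 and Nlrp5 from 11.2% to 6.63%. Padi6 went the other way, from 18.3% to 25.5%, as did Tle6, from 4.98% to 8.48%.

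**Figure D3:**
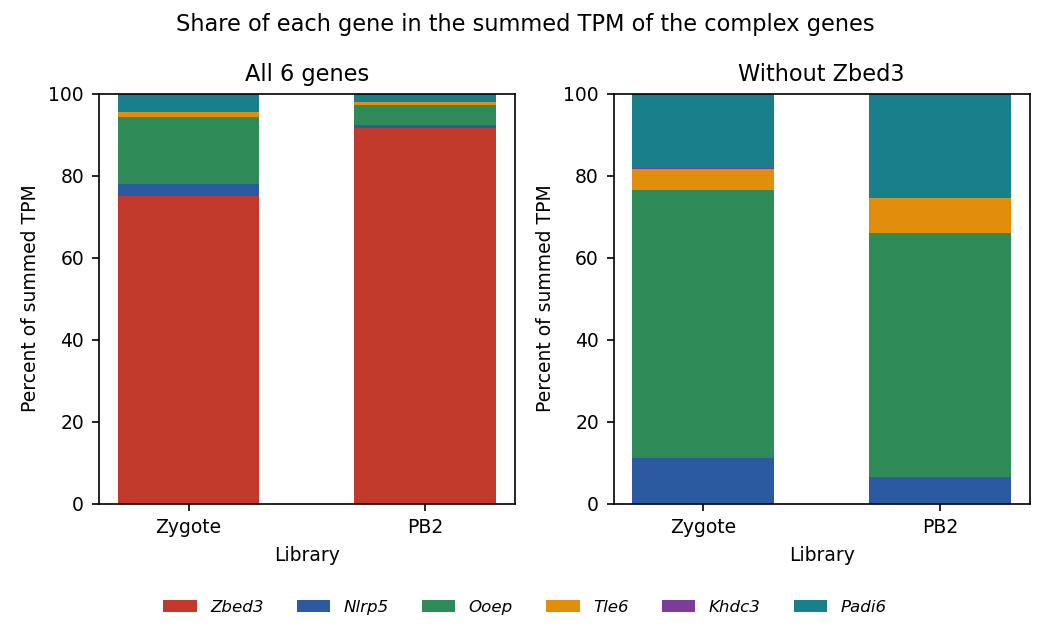
Share of each gene in the summed TPM of the complex genes, as percent, for the zygote and the PB2 library, with all 6 genes on the left and without Zbed3 on the right. Zbed3 fills 75.1% of the zygote bar and 91.7% of the PB2 bar, and without it Ooep is the largest part of both bars, at 65.4% and 59.3%.

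The log2 ratio moved with the GC content of the transcripts in these libraries, and the members followed that trend to different extents. The longest transcripts had GC contents of 46.3% for Ooep, 47.2% for Nlrp5, 53.2% for Padi6, 53.9% for Zbed3, 56.0% for Tle6 and 57.9% for Khdc3. After removal of that trend, which centres the ratios as well, Tle6 was at 0.33 and Padi6 at 0.28, both close to genes of their GC content. Zbed3 stayed at 1.61, and of the 1022 genes within 1 percentage point of its GC content 22 had a larger log2 ratio. Ooep and Nlrp5 were little affected, at 0.17 and -0.49. Khdc3 was at -1.42, past 2-fold towards the zygote, and 51 of the 674 genes of like GC content had a smaller log2 ratio. The part of GC content in the difference between the libraries was not tested.

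**Figure D4:**
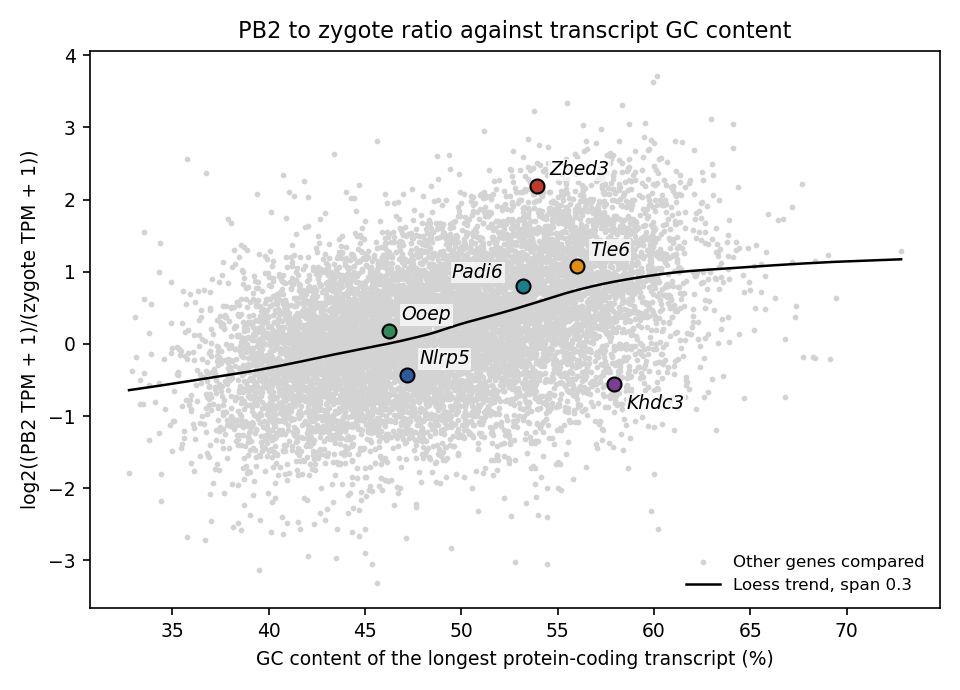
Log2 ratio of PB2 to zygote against the GC content of the longest protein-coding transcript in percent, with each compared gene as a grey point, the 6 members as coloured points and the loess trend as a black line. Tle6, Padi6 and Ooep lie close to the line, Zbed3 lies well above it and Khdc3 well below it.

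The members were set beside the relatives in their protein families. Nlrp5 had the direction of its family, whose oocyte-expressed genes lie in clusters. All 10 Nlrp relatives had a lower level in PB2 than in the zygote, 3 of them by at least 2-fold, and their median log2 ratio was -0.72. Over all genes compared, 4262 of 10645 had a negative log2 ratio and 8.09% passed 2-fold towards the zygote. Nlrp9c had 345.5 TPM in PB2 against 813.9 in the zygote, Nlrp9b 219.9 and 515.4 TPM, and Nlrp4b 192.0 and 412.2 TPM. Nlrp4f, the most abundant of the list, was almost level, with 880.9 TPM in PB2 against 922.7 in the zygote. Before any adjustment for GC content, Nlrp5 at -0.43 was less shifted than the median of its relatives. The transcripts of this list were low in GC, with a median of 42.0%, against 47.2% for Nlrp5. With the GC trend removed Nlrp5 was at -0.49 and the median of its relatives at -0.51, almost level.

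The other families were mixed. Among 4 KH-domain relatives of Ooep and Khdc3, none was past 2-fold and the median log2 ratio was -0.06. Khdc1b had 4271 TPM in PB2 against 2409 in the zygote, more than either member, and Dppa5a had 120.6 and 193.2 TPM. Of the Tle family, 3 relatives were in the table and none was past 2-fold, with Tle4 at 31.8 TPM in PB2 against 15.6 in the zygote and Aes at 15.6 and 11.2 TPM. Padi6 stood alone in its family by level. Of its 3 relatives in the table, Padi2 was past 2-fold and the highest in PB2, at 1.90 TPM against 0.40 in the zygote, where Padi4 was the highest at 1.1 TPM. Zbed4 had 10.8 TPM in PB2 against 10.5 in the zygote, and Zbed5 had 4.4 and 2.3 TPM, so neither relative of Zbed3 came near its level or its log2 ratio.

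**Figure D5:**
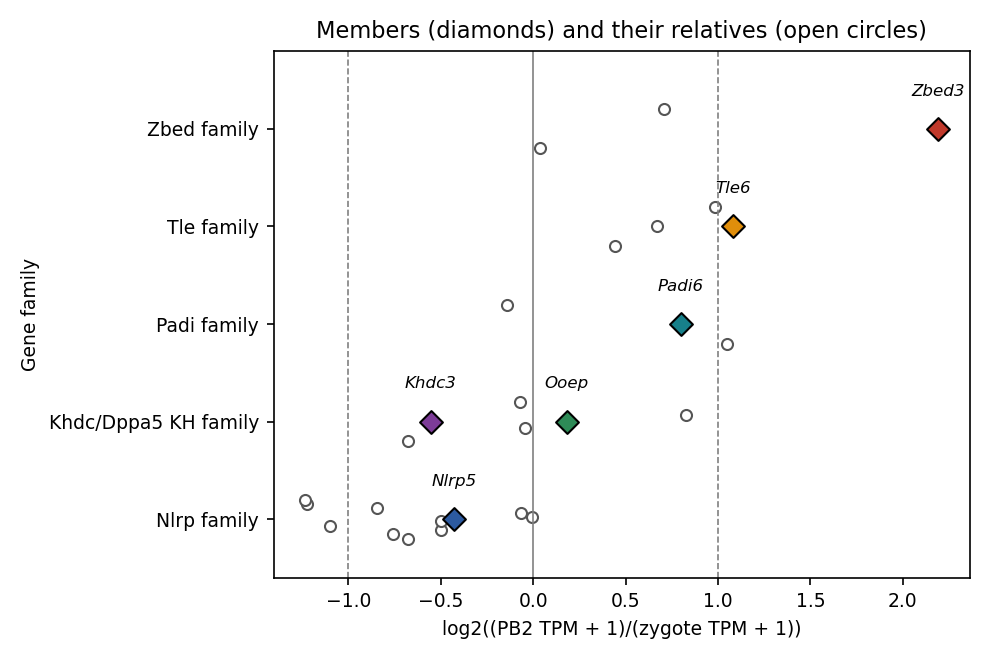
Log2 ratio of PB2 to zygote for the 6 members (coloured diamonds) and their compared family relatives (open circles), by gene family, with dashed lines at 2-fold. All Nlrp points lie at or left of 0, Khdc3 and Ooep lie among their KH-domain relatives, and Zbed3 at 2.19 lies apart from Zbed4 and Zbed5.

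On the genome, 4 of the 6 members have a family relative as the nearest table gene on a side. Nlrp4e lies 23.6 kb from Nlrp5, with 184.0 TPM in PB2 against 184.7 in the zygote. Dppa5a lies 7.93 kb from Ooep and had a log2 ratio of -0.68 against 0.18 for Ooep. Padi4, 3.22 kb from Padi6, had 0.90 TPM in PB2 against 1.1 in the zygote. Aes lies 24.5 kb from Tle6. Nlrp4e was close in level to Nlrp5 in both libraries, while Dppa5a, Padi4 and Aes were far below the member beside them. Zbed3 is flanked by Pde8b, with 4.1 TPM in PB2 against 2.4 in the zygote, and Aggf1, with 27.7 and 13.0 TPM, the latter with a log2 ratio of 1.04. Khdc3 is flanked by Rab27a, at 14.5 and 16.2 TPM, and Rsl24d1, at 55.9 and 92.3 TPM. Ooep and Khdc3 lie 5.27 Mb apart on chromosome 9. The remaining neighbours were Zfp180 of Nlrp5, Cgas of Ooep, Sirt6 of Tle6 and Rcc2 of Padi6, of which Rcc2 had 18.4 TPM in PB2 against 4.7 in the zygote.

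Genes most like each member were taken as the 3 nearest in log2 ratio among the 155 abundant genes, a likeness over only 2 libraries. For Zbed3 these were Sap30, with 2984 TPM in PB2 against 693.9 in the zygote, Anxa7, with 1089 and 274.7 TPM, and AU022751, with 2300 and 584.6 TPM. All 3 were among the abundant genes only through PB2, the library in which they were higher. The nearest to Zbed3 differed from it by 0.09 in log2 ratio. For Ooep they were Tcl1b3, Tcl1b2 and Eif5a, and for Padi6 H1foo, Cox6a1 and Khdc1b. H1foo, the oocyte linker histone, had 9334 TPM in PB2 against 5428 in the zygote. For Tle6 they were Rdx, Arf1 and Smagp, for Nlrp5 Cenpn, Oas1h and Snrpe, and for Khdc3 Paip1, Ccdc69 and Eny2. Of these genes, Oas1h, Paip1 and Eny2 were among the abundant genes only through the zygote, the library in which they were higher. Eif5a, Cox6a1 and Arf1 were among them only through PB2, where they were higher. The likeness was in log2 ratio and not in level. Khdc3 had 2.2 TPM in PB2 against 3.7 in the zygote, whereas Eny2 had 694.8 and 1010.6 TPM.

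Genes that act with the complex were examined by lists. Of the 9 compared genes around Axin and β-catenin, the pathway of the known binding partner of Zbed3, 4 passed 2-fold towards PB2 and none towards the zygote, with a median log2 ratio of 0.98. Over all genes these shares were 18.9% and 8.09%. With the GC trend removed the median of this list, whose transcripts had a median GC content of 54.6%, was 0.37. Dvl3, Ctnnb1, Axin1 and Dvl2 were the 4 genes past 2-fold, with log2 ratios of 2.34, 1.55, 1.52 and 1.10. Some of these levels were low, and the depth behind them is unknown. Dvl3 had 20.8 TPM in PB2 against 3.3 in the zygote, Axin1 28.9 and 9.4 TPM, and Dvl2 3.3 and 1.0 TPM. The study chose Wnt pathway components for RT-qPCR as higher in PB2 in these libraries. All 9 genes here are values of the same 2 libraries, and the list was chosen with earlier results known. None of them is independent evidence. Axin2 had 26.6 TPM in PB2 against 23.4 in the zygote, and Gsk3b 8.8 and 9.4 TPM. In PB2, Zbed3 was thus far above the level of every gene of this list, the highest of which were Ctnnb1 with 149.3 TPM and Csnk1a1 with 145.9 TPM.

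The complex is known to act on the egg cortex through cofilin, which severs actin filaments. Of 12 cofilin and F-actin regulators compared, 3 passed 2-fold towards PB2, where the share over all genes was 18.9%, and none towards the zygote, where it was 8.09%. Their median log2 ratio was 0.54. Limk2, a kinase that inactivates cofilin, had 103.0 TPM in PB2 against 29.7 in the zygote, and Limk1 had 4.6 and 1.6 TPM. Wdr1, a cofactor of cofilin, had 23.7 and 8.2 TPM. Cofilin itself, Cfl1, was lower in PB2 at 828.7 TPM than in the zygote at 1198 TPM, a log2 ratio of -0.53. Rock1, a kinase upstream of the Limk proteins, had 261.8 TPM in PB2 against 142.0 in the zygote.

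Among 7 compared genes of proteins linked to the cytoplasmic lattices, 3 passed 2-fold towards PB2 (18.9% over all genes). None passed 2-fold towards the zygote (8.09% over all genes). Their median log2 ratio was 0.77, which fell to 0.39 once the GC trend was removed. These transcripts were GC-rich, with 54.9% at the median against 49.1% over all genes compared. Uhrf1, a regulator of DNA methylation held in the egg cytoplasm, had 353.1 TPM in PB2 against 169.7 in the zygote. The tubulins Tuba1c, with 86.7 and 35.1 TPM, and Tubb2a, with 165.6 and 78.0 TPM, were the other genes past 2-fold, while Tubb4b, with 589.1 and 396.7 TPM, was not. Nlrp14 went the other way, with 533.7 TPM in PB2 against 855.0 in the zygote. Padi6, the lattice gene of the complex, had a log2 ratio of 0.80, close to the unadjusted median of this list.

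Of the 5 compared oocyte transcription factors, Lhx8 alone was past 2-fold, with 147.7 TPM in PB2 against 42.0 in the zygote. That is close to the share of 18.9% past 2-fold towards PB2 over all genes. None was past 2-fold towards the zygote, where the share over all genes was 8.09%. Nobox, at 312.0 and 223.5 TPM, and Figla, which activates the zona pellucida genes, at 5.9 and 6.8 TPM, were not.

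The complex genes were last set beside 26 other maternal-effect genes, of which 7 passed 2-fold towards PB2, with 18.9% over all genes, and 1, Dppa3, towards the zygote, with 8.09% over all genes. Their median log2 ratio was 0.13, near the median of all genes, and they ranged from -1.48 for Dppa3 to 2.68 for Zar1. Dnmt3a had a log2 ratio of 2.27. Hsf1, a heat shock transcription factor, had 410.1 TPM in PB2 against 86.5 in the zygote, and Tet3, which oxidizes 5-methylcytosine, had 258.9 and 69.5 TPM. Btg4, an adaptor of mRNA deadenylation, had 9471 TPM in PB2 against 16642 in the zygote. Their transcripts thus spread over both directions, as those of the complex did. In PB2, Zbed3 was 2.74 times as abundant as Btg4, whereas in the zygote Btg4 was 2.93 times as abundant as Zbed3.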

How the data were processed

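The authors base-called reads with CASAVA, aligned them with HISAT2 2.0.4, counted reads per gene with HTSeq 0.6.1p1 on Ensembl release 85 and normalized with DESeq2 1.18.1. They deposited TPM per gene, rounded to 1 decimal, with 1 column per library. How TPM was computed is not stated. The submitters' processing notes list OryCun2.0 and GRCm38, and the gene identifiers are those of mouse. The columns name the polar body and 1-cell libraries and were matched to the samples titled PB2 and Zygote. Depth is unknown and no counting interval can be given. The PB2 column sums to 898326 and the zygote column to 927063 TPM, short of a full library, and genes outside the table were not analysed here.

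From these values the log2 ratio with a pseudocount of 1 was computed over genes that reached 1 TPM in PB2 or zygote, and those past 2-fold were counted. No test was run. The trend on GC content was a loess fit with a span of 0.3. Coordinates, transcript lengths, GC contents and 3′ ends came from GENCODE M21 (GRCm38), with a protein-coding transcript for 11221 of the 11262 genes. Similar transcripts were searched with blastn 2.17.0 at an E-value of 1e-10. The members, the lists and the rule for genes named were chosen with earlier results of these data known. Named were the 6 members, in each list up to 4 genes furthest apart among those past 2-fold and the 2 most abundant, the 3 genes nearest each member in log2 ratio and the nearest table genes on each side. Fshr, Cyp11a1, Axin2, Gsk3b, Figla and Lars2 were added after their values were seen. The functions were tested on simulated data. Python 3.11.15, numpy 2.4.6, pandas 2.3.3, statsmodels 0.14.6 and matplotlib 3.10.9 were used.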

Additional observations from a re-analysis of the deposited data

How the results depend on the processing

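No paired analysis was possible because each group has 1 library, and no replicate could be left out. Of 118 values of the members under the alternatives, 105 stayed within 0.5 on the log2 scale or 1.5 times of a count. The other 13 moved, and none of the values past 2-fold changed sign. Part of the 105 could not move. A filter leaves the log2 ratio of a member that passes it as it was. Scaling or centring a whole library leaves the gap between Zbed3 and the other 5 almost as it was. The log2 ratio of Zbed3 lay between 1.61 and 2.68, and its gap to the median of the other 5 between 1.44 and 2.24. With the GC trend removed the log2 ratio was 1.61 for Zbed3, 0.33 for Tle6, 0.28 for Padi6 and -1.42 for Khdc3, and the gap was 1.44. The count of members past 2-fold towards PB2 was then 1, and 1 member passed 2-fold towards the zygote. The count in PB2 was also 1 with the zygote scaled to a median ratio of 1 (a factor of 1.06), with centring, with division by Actb, with rescaling without the most abundant genes, with the length trend removed and at 4-fold, since Tle6 is only just past 2-fold. It was 3 at 1.5-fold. The sign of Ooep, within 0.1 of the median of all genes, changed under 2 alternatives, down to -0.07. With the trend on abundance removed, the log2 ratio of Ooep was 0.43. Rescaling without Zbed3, added after the data were seen, shifts all other genes nearly alike and could not move a member by 0.5. Nlrp5 went from -0.43 to -0.40 and Tle6 from 1.08 to 1.11. Of 118 medians of the other lists, 4 moved: with the GC trend removed those of the Axin and β-catenin list to 0.37, the Tle relatives to 0.17 and the Padi relatives to -0.26, and with a pseudocount of 0.01 the Padi relatives to 0.97. The cause of the changes was not tested. The unknown depth limits Khdc3 most, at 2.2 and 3.7 TPM.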

Other observations

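The motif search over the 3′ ends gave a further pattern among abundant mRNAs. Of the abundant genes, those that reached 1000 TPM in PB2 or zygote, 52 held a cytoplasmic polyadenylation element in the last 100 bases of the transcript and 102 did not. The 52 had a median log2 ratio of -0.06 and the 102 a median of -0.49, where that of all 155 abundant genes was -0.35. Past 2-fold towards the zygote were 5.77% of the 52 and 23.5% of the 102. The abundant genes as a whole leaned that way too, with 28 of the 155 past it, against 8.09% over all genes. Past 2-fold towards PB2 were 13.5% of the 52 and 10.8% of the 102, against 11.6% of the abundant genes and 18.9% over all genes. The median GC contents of both sets were alike, at 45.6% and 45.7%. Genes entered by their level in the higher library, so the shares past 2-fold also depend on that rule. Zbed3 is among the 52, but its log2 ratio of 2.19 is far from their median. This is a description of genes of these libraries, seen after the values were known, and was not tested.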
